A study of Homo sapiens with 12 samples.

Results

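The let-7 family comprises 9 mature microRNAs on these arrays, hsa-let-7a, hsa-let-7b, hsa-let-7c, hsa-let-7d, hsa-let-7e, hsa-let-7f, hsa-let-7g, hsa-let-7i and hsa-miR-98, which were taken by name from 851 human microRNA names and are written without the species prefix from here on. They were measured in SUM159, a human triple-negative breast cancer line with mesenchymal traits, on 12 one-colour Agilent microRNA arrays, with 3 biological replicates per group. The 4 groups were Dicer shRNA cells treated with 0.5 mM metformin, control shRNA cells treated with 0.5 mM metformin, Dicer shRNA cells treated with PBS (the vehicle) and control shRNA cells treated with PBS, each for 24 h. Titles, descriptions and characteristics give these groups, but the source names call the Dicer shRNA cells with metformin treated control cells and the control shRNA cells with metformin untreated control cells. Both lines carried a stable PLKO.1 lentiviral vector, and the control vector encodes a scrambled shRNA. Metformin is a drug against type 2 diabetes. The medium of all cells contained insulin and hydrocortisone. The design asks what metformin does to microRNAs and what part Dicer has in it. All metformin arrays lay on 1 slide and all vehicle arrays on the other. A metformin difference therefore cannot be told apart from one between slides, while the knockdown was compared within a slide, where the lines occupied separate array positions. Dicer mRNA is not measured by these arrays, and the knockdown was not checked. In total RNA, fewer cells and less of a microRNA per cell cannot be told apart.

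The let-7 microRNAs were first found as regulators of developmental timing in Caenorhabditis elegans, and in human tissues they are abundant in differentiated cells. Each is cut by Drosha and then by Dicer from a hairpin, and one strand, the guide, is loaded into an Argonaute protein. It represses mRNAs that pair with its seed, among them those of RAS proteins, HMGA2, MYC and Dicer itself. LIN28 proteins block the processing of let-7 precursors, and low let-7 is known from breast cancer cells with stem cell traits.

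All 9 members matched a RefSeq mature sequence of 22 bases (build GRCh38.p14). They are shown because they share 1 seed, bases 2 to 8, given in capitals, so that the members differ in the remaining bases alone.
let-7a: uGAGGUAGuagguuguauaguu
let-7b: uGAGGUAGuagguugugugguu
let-7c: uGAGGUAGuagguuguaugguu
let-7d: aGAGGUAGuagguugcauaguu
let-7e: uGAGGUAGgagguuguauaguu
let-7f: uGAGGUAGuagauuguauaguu
let-7g: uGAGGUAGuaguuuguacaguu
let-7i: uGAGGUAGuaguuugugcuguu
miR-98: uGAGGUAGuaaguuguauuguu

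With positions counted from 1 at the 5′ end and let-7a given first, let-7c carries A19G and let-7b carries A17G and A19G, so that let-7b and let-7c differ at 1 base. let-7e differs from let-7a by U9G and let-7f by G12A. let-7d carries U1A and U16C, let-7g carries G12U and U18C, and miR-98 carries G11A and A19U. let-7i is the most distant, with G12U, A17G, U18C and A19U. The files give 1 summed signal per name and no probe sequences. Whether a probe also bound a sister sequence was not tested.

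The members come from 12 hairpins on 8 chromosomes (GRCh38.p14, RefSeq). let-7a is made from hairpins at chr9:94175957-94176036, chr11:122146522-122146593 and chr22:46112749-46112822, and the array cannot separate them. let-7b lies at chr22:46113686-46113768 within the span of the host gene MIRLET7BHG, and let-7c at chr21:16539828-16539911 within that of MIR99AHG. let-7f comes from chr9:94176347-94176433, near let-7a and let-7d in MIRLET7A1HG, and from chrX:53557192-53557274, which shares the span of HUWE1 with miR-98 at chrX:53556223-53556341. let-7d lies at chr9:94178834-94178920, let-7e at chr19:51692786-51692864 in the span of SPACA6, let-7g at chr3:52268278-52268361 in that of WDR82, and let-7i at chr12:62603686-62603769 in that of MIRLET7IHG. Whether they fall in exons or introns was not analysed here.

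Across the series 263 human names had a detection on some array and 98 on all 12, with 130 to 204 per array. The 8 microRNAs listed as markers of SUM159 include miR-100 and miR-125b, which are taken up below as partners of let-7. Of these 8, 7 were detected on all arrays of both vehicle groups and of Dicer shRNA cells with metformin. On all arrays of control shRNA cells with metformin 5 were detected, while miR-31 was detected on no array of the series. Their summed scaled signal was 532 to 657 in Dicer shRNA cells with metformin, 191 to 327 in control shRNA cells with metformin, 910 to 1087 in Dicer shRNA cells with vehicle and 2564 to 2865 in control shRNA cells with vehicle. Of 7 epithelial microRNAs only miR-205 was detected, and miR-200c and its relatives were detected on no array. The miR-205 signal was 76.8 to 105 in Dicer shRNA cells and 106 to 134 in control shRNA cells with metformin. With vehicle it was 123 to 129 in Dicer shRNA cells and 620 to 645 in control shRNA cells. The 4 muscle microRNAs summed to 7.74 to 21.1 in Dicer shRNA cells and 24.9 to 29.9 in control shRNA cells with metformin, against 0 to 6.52 and 0 to 4.41 with vehicle. Of 6 blood cell microRNAs only miR-223 was detected, on the control shRNA arrays with metformin (summed signal 4.29 to 9.63), and miR-122 of liver was never detected. Of 3 neuronal microRNAs only miR-128 was detected, on the control shRNA arrays with vehicle. The part of these signals in the let-7 results was not tested.

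Detection of the family differed sharply between groups. In Dicer shRNA cells with metformin, let-7b and let-7c were detected on all 3 arrays and the other 7 members on none. In control shRNA cells with metformin, let-7b was the only member detected, on 2 of 3 arrays. In Dicer shRNA cells with vehicle, let-7b and let-7c were detected on all 3 arrays, let-7a on 2 and let-7f on 1. In control shRNA cells with vehicle, 6 members were detected on all 3 arrays, let-7e on 2 and let-7d on 1. miR-98, which lies beside a let-7f hairpin on the X chromosome, was detected on none of the 12 arrays. The plot of signals by array shows 1 member in control shRNA cells with metformin and 8 in control shRNA cells with vehicle.

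**Figure D1:**
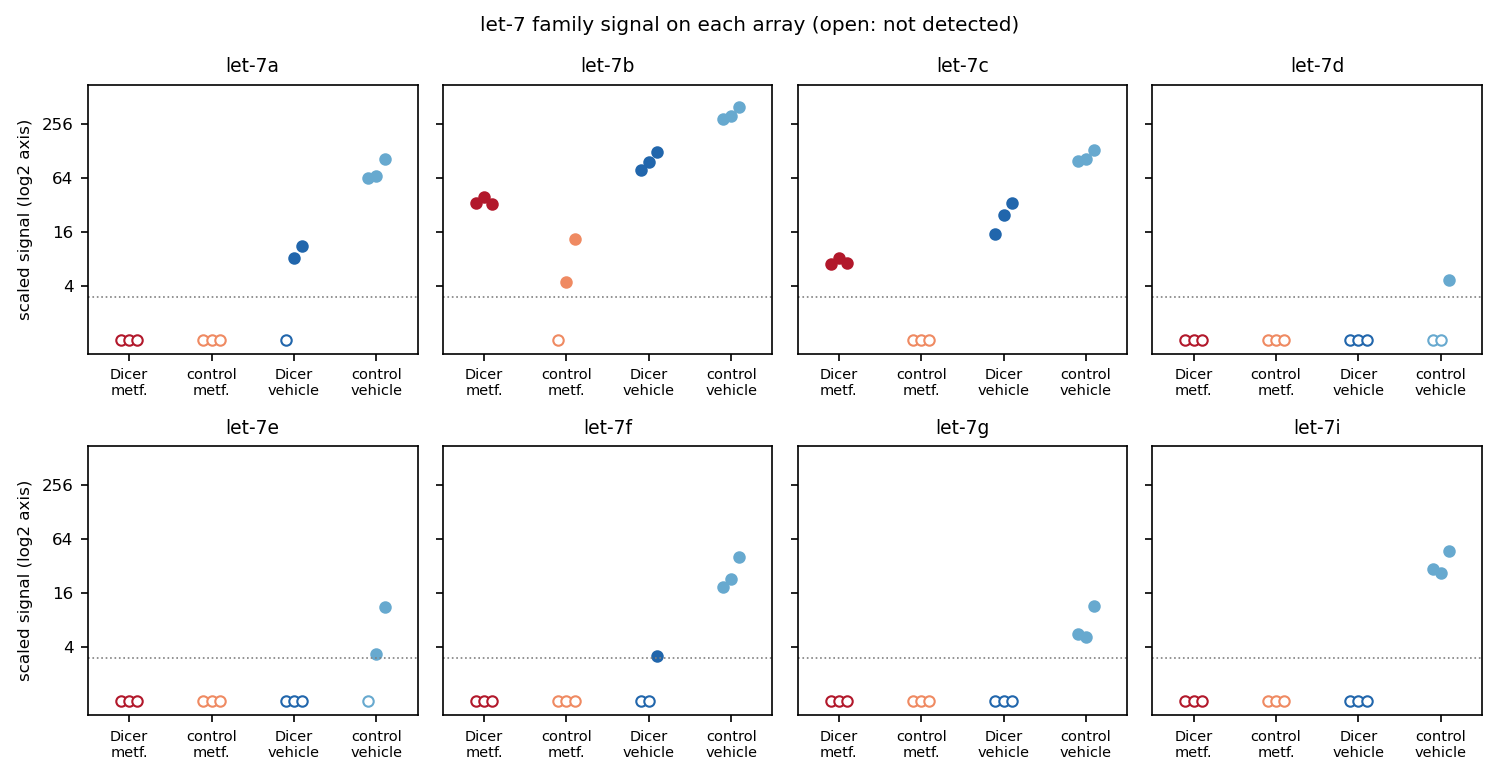
Scaled signal (intensity divided by the scale factor of its array, log2 axis) of the 8 let-7 members detected on any array, 1 point per array and 3 arrays per group; open points are arrays without detection, drawn below the floor of 3.01 (dotted line). Control shRNA arrays with vehicle hold the highest signals of each member, and let-7b (287 to 394 there) is the only member detected in every group.

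let-7b, which is known to repress cell cycle genes, had scaled signals of 33.1, 38.5 and 32.6 in Dicer shRNA cells with metformin. It had 4.34 and 13.4 on 2 arrays of control shRNA cells with metformin and was not detected on the other. It had 77.2, 95.8 and 123 in Dicer shRNA cells with vehicle and 287, 313 and 394 in control shRNA cells with vehicle. No 2 of the 4 groups overlapped. Control shRNA cells with vehicle were highest, followed by Dicer shRNA cells with vehicle, Dicer shRNA cells with metformin and control shRNA cells with metformin.

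let-7c, transcribed with miR-99a and miR-125b, had scaled signals of 6.90, 8.19 and 7.23 in Dicer shRNA cells with metformin and was not detected in control shRNA cells with metformin. It had 15.1, 24.5 and 33.5 in Dicer shRNA cells with vehicle and 97.1, 104 and 132 in control shRNA cells with vehicle. Its groups thus stood in the same order as those of let-7b and did not overlap.

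let-7a, whose sequence is that of the Caenorhabditis elegans let-7, was not detected on any metformin array. It had 8.15 and 11.1 on 2 arrays of Dicer shRNA cells with vehicle, with no detection on the other, and 64.1, 67.3 and 105 in control shRNA cells with vehicle. let-7f, encoded beside let-7a on chromosome 9, had 3.20 on 1 array of Dicer shRNA cells with vehicle and 18.8, 22.9 and 40.6 in control shRNA cells with vehicle. Both were far lower on every Dicer shRNA array than on any control shRNA array with vehicle.

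let-7i and let-7g were detected only in control shRNA cells with vehicle, let-7i at 29.8, 26.9 and 46.9 and let-7g at 5.55, 5.13 and 11.4. let-7e was detected there on 2 arrays at 3.31 and 11.3, and let-7d on 1 array at 4.60. In that group replicate 3 was the highest array for all 8 detected members, and in Dicer shRNA cells with vehicle replicate 3 was the highest for all 4. The members' signals were 3.20 to 14.0 times their stated error where detected.

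For the tests, scaled signals under a floor of 3.01, and undetected ones, were set to that floor and log2 was taken. Members at the floor in a whole group therefore have no spread there, and their errors are understated. The 6 members detected on all 3 arrays of some group were tested among 208 human microRNAs, and let-7d, let-7e and miR-98 did not pass this filter. The filter was passed by let-7a, let-7f, let-7g and let-7i through the control shRNA vehicle arrays alone, so that they had to differ from groups where they are not detected. Their differences are therefore given as descriptions, with no test, and only let-7b and let-7c, which qualified through both vehicle groups and through Dicer shRNA cells with metformin, are counted. A call is an adjusted p under 0.05, and differences are log2 values ± SE (3 arrays per group), adjusted over all 208. Folds given as "at least" take undetected arrays at a set low signal, and the detection limit of single names was not examined.

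Under vehicle, let-7b and let-7c stood lower in the Dicer shRNA line. let-7b fell by 1.76 ± 0.45, or 3.39-fold (adjusted p 0.00594, limma with Benjamini-Hochberg adjustment), and let-7c fell by 2.25 ± 0.24, or 4.75-fold (adjusted p 2.91e-05), both with detection on all 6 arrays. Of all tested microRNAs 38% were called lower, and the median difference over all 208 was 0.00. The arrays of the lines did not overlap for either member, as was the case in this direction for 39.4% of the tested microRNAs. Of the members that qualified through control shRNA cells with vehicle alone, let-7i was at least 10.3-fold and let-7g at least 2.12-fold lower in Dicer shRNA cells, where no array detected them. let-7a differed by -3.56 and let-7f by -3.08, values that the floor limits because 2 and 1 of 3 Dicer shRNA arrays detected them. Features named hur, which are not microRNA names and of which 4 were detected on all arrays, were lower too (median difference -0.81). Scaled to them, let-7b was -1.01 and no longer called (adjusted p 0.366), while let-7c kept its call.

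Under metformin let-7b and let-7c stood higher in the cells labelled Dicer shRNA. let-7b rose by 2.63 ± 0.45 in Dicer shRNA cells over control shRNA cells, or 6.19-fold (adjusted p 0.000942, limma), with 1 of 3 control shRNA arrays at the floor. Without replicate 3 of control shRNA cells with metformin, the highest of these, the difference was 3.26, or 9.58-fold (adjusted p 6.89e-06). let-7c was at least 2.47-fold higher in Dicer shRNA cells (adjusted p 0.00154), with the control shRNA arrays, none of which detected it, set at the floor. Of all tested microRNAs 13.9% were called higher, and the groups did not overlap in this direction for 13.9%. For the other 4 tested members no array of either line gave a detection, and no fold is given. The direction rests on the titles and characteristics of the metformin samples, with which their source names conflict. If these 2 groups were exchanged, the sign of this difference would turn, as would that of the let-7b interaction below, while that of let-7c would stay positive. The 4 hur features were higher in Dicer shRNA cells too (median difference 1.95). With scaling to them let-7b was 1.67 (adjusted p 0.095), and with scaling to 10 viral microRNA probes detected on all arrays let-7c was 0.97 (adjusted p 0.0807).

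The knockdown differences of the 2 slides were set against each other by the interaction term. It was 4.39 ± 0.63 for let-7b (adjusted p 0.000149) and 3.55 ± 0.35 for let-7c (adjusted p 9.37e-06), in limma. The floor on control shRNA arrays with metformin limits both values. Over all tested microRNAs 37% were called in this direction. Scaled to the hur features, the interaction of let-7b was 2.67 (adjusted p 0.053), and without replicate 3 of control shRNA cells with metformin it was 5.02. For the other 4 tested members it shows nothing beyond the vehicle difference, of which it is the value with its sign turned, since no metformin array detected them.

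**Figure D2:**
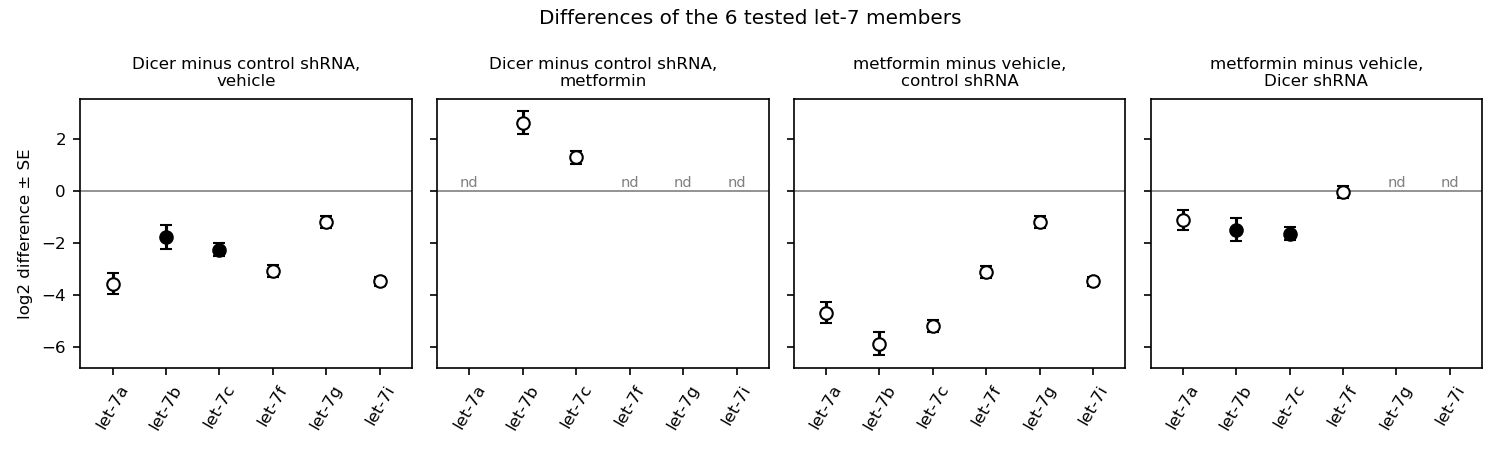
log2 differences ± SE (limma, 3 arrays per group) of the 6 tested members in each comparison; filled points were detected on all 6 arrays compared, open points had arrays at the floor, and nd marks members detected in neither group. let-7b and let-7c lie below 0 under vehicle (-1.76 and -2.25) and above 0 under metformin (2.63 and 1.30, the values there being limited by the floor).

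In control shRNA cells the metformin arrays held almost no let-7 signal, by a group label with which the source names conflict. let-7b fell by 5.88 ± 0.45 relative to vehicle (adjusted p 5.40e-07, limma), a value the floor limits since 2 of 3 metformin arrays detected it, and without replicate 3 of the metformin arrays it was -6.51. let-7c was at least 36.5-fold lower (adjusted p 1.60e-08). Of all tested microRNAs 40.4% were called lower, and the median difference over all 208 was 0.52. Each metformin array lay below each vehicle array for both members, as held in this direction for 40.4% of the tested microRNAs. Of the members that qualified through control shRNA cells with vehicle alone, let-7a was at least 25.5-fold, let-7i at least 11.1-fold, let-7f at least 8.61-fold and let-7g at least 2.28-fold lower, with no detection on the metformin arrays. The 4 hur features were lower too (median difference -3.84), while the 10 viral probes were higher (median difference 1.38). The calls of let-7b and let-7c held with scaling to either set.

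In Dicer shRNA cells let-7b and let-7c were lower on the metformin arrays, by less than in control shRNA cells, a contrast that the interaction term above also tests. The metformin groups rest on titles and characteristics, with which the source names conflict. If these groups were exchanged, let-7b would be lower by more in Dicer than in control shRNA cells. let-7c would still be lower by less. let-7c fell by 1.64 ± 0.24, or 3.12-fold (adjusted p 0.000906, limma), and let-7b fell by 1.49 ± 0.45, or 2.80-fold (adjusted p 0.0377), both detected on all 6 arrays. let-7a, at the floor on the metformin arrays, was -1.11 ± 0.40, and let-7f was -0.03 ± 0.22, both given as descriptions with no test. let-7g and let-7i were detected in neither group. Of all tested microRNAs 18.3% were called lower, and the groups did not overlap in this direction, as for let-7b and let-7c, for 20.7%. The call of let-7b rested on single arrays and on the processing: with 1 of 8 arrays left out the adjusted p was 0.0513 to 0.127, after quantile normalization 0.12 and with the series matrix 0.369. The 8 arrays were all 3 of Dicer shRNA cells with metformin, replicate 2 of control shRNA cells with metformin, replicates 2 and 3 of Dicer shRNA cells with vehicle and replicates 1 and 2 of control shRNA cells with vehicle. Scaled to the hur features let-7b was -0.56 (adjusted p 0.713). Without replicate 1 of Dicer shRNA cells with vehicle, which did not detect let-7a, the difference of let-7a was -1.66, again a description with no test. The call of let-7c was lost after quantile normalization (adjusted p 0.0588) and with only these 2 groups in the fit (adjusted p 0.0503). The 4 hur features were lower (median difference -0.999).

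The let-7b and let-7c signals, whose sequences differ at 1 base, were also set against each other within each array. The log2 ratio of let-7b over let-7c was 2.26, 2.23 and 2.17 in Dicer shRNA cells with metformin. It was 2.36, 1.97 and 1.88 in Dicer shRNA cells with vehicle and 1.56, 1.60 and 1.58 in control shRNA cells with vehicle. The ratio was higher on each Dicer shRNA array than on any control shRNA array with vehicle. Under vehicle the ratio averaged 2.07 ± 0.25 in Dicer shRNA cells and 1.58 ± 0.02 in control shRNA cells (SD, n = 3 each), and the groups did not overlap (two-sided exact permutation p = 0.1, the smallest that 3 against 3 allows, and 0.24 adjusted over 6 ratio tests). The Dicer shRNA groups with metformin and vehicle overlapped (exact p = 0.4), through replicate 1 of the vehicle arrays, without which they did not. The ratio compares changes and does not rank the 2 levels, since each name has its own probes.

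**Figure D3:**
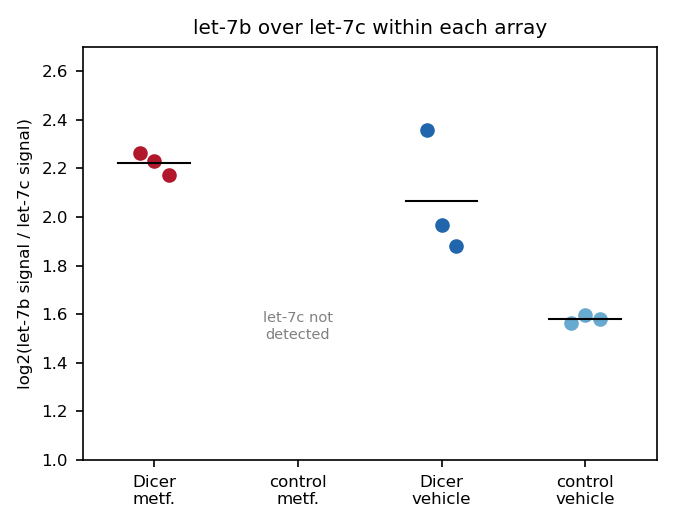
log2 ratio of the let-7b to the let-7c signal within each array, 1 point per array, with the group mean as a line; the y axis does not start at 0, and let-7c was not detected in control shRNA cells with metformin. The 3 control shRNA arrays with vehicle lie within 1.56 to 1.60, below all 6 Dicer shRNA arrays.

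The passenger strand is the arm of the same hairpin that is usually discarded when the guide is loaded. Since both arms leave the hairpin together, they are shown for the let-7b and let-7f-1 hairpins, with the guide and then the passenger strand in capitals.
MIRLET7B: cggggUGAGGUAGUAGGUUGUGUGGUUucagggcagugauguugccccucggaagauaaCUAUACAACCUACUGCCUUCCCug
MIRLET7F1: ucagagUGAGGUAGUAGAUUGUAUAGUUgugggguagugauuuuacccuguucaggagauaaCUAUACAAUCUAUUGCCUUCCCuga

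The array lists 9 let-7 passenger strands, of which 5 were never detected, let-7e* was detected on 1 array, and 3 were tested. let-7b* had scaled signals of 12.5, 11.3 and 14.1 in Dicer shRNA cells with metformin and 16.5, 15.7 and 19.8 in control shRNA cells with metformin. It had 23.6, 5.30 and 7.55 in Dicer shRNA cells with vehicle and 6.63, 8.61 and 13.3 in control shRNA cells with vehicle. In control shRNA cells each metformin array thus lay above each vehicle array for let-7b*, whereas its guide let-7b was highest on the vehicle arrays.

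let-7f-1* had 9.18, 12.6 and 12.4 in Dicer shRNA cells with metformin and 14.0, 13.7 and 14.8 in control shRNA cells with metformin. It had 8.06, 4.75 and 7.58 in Dicer shRNA cells with vehicle and 2.20, 7.78 and 7.33 in control shRNA cells with vehicle. It was detected on all 12 arrays, while its guide let-7f was detected on 4. let-7d* was detected on 10 arrays, while let-7d was detected on 1. let-7d* had 2.53 and 5.46 on 2 arrays of Dicer shRNA cells with metformin and 9.68, 8.40 and 12.7 in control shRNA cells with metformin. It had 22.9, 2.19 and 3.41 in Dicer shRNA cells with vehicle, and 4.06 and 8.28 on 2 arrays of control shRNA cells with vehicle. Replicate 1 of Dicer shRNA cells with vehicle stood apart for the passenger strands, since let-7b* and let-7d* were highest there and let-7e* was detected there alone.

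In control shRNA cells metformin arrays had more let-7f-1* than vehicle arrays, by 1.35 ± 0.34 (adjusted p 0.00362, limma), which was 1 of 3 tested passenger strands, where 47.6% of all tested microRNAs were called higher. The groups did not overlap for any of the 3, as held in this direction for 51.4% of the tested microRNAs. let-7d* was 1.12 ± 0.70 (adjusted p 0.155) and let-7b* 0.92 ± 0.47 (adjusted p 0.0861). After scaling to the viral probes the 3 values were below 0 (-0.74 to -0.15). With the main settings no passenger strand was called in the knockdown comparison under vehicle, that under metformin, the metformin comparison in Dicer shRNA cells or the interaction, where 59.6%, 38.9%, 24.5% and 76.4% of all tested microRNAs were called. Under vehicle the knockdown differences were 0.10 for let-7b*, 0.25 for let-7f-1* and 0.41 for let-7d*, and without replicate 1 of Dicer shRNA cells with vehicle those of let-7b* and let-7d* were -0.53 and -0.54. Their signs turned with the scaling, those of let-7b* and let-7f-1* with median scaling and all 3 with scaling to the viral probes.

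Other settings gave calls that these settings did not. Under vehicle let-7f-1* was 0.78 in Dicer over control shRNA cells after quantile normalization (adjusted p 0.00031, limma). Under metformin let-7d* was called lower in Dicer shRNA cells with median scaling (-1.60, adjusted p 0.0434), with array weights (-1.65, adjusted p 0.0044), with only the groups compared (adjusted p 0.0271) and without replicate 1 of Dicer shRNA cells with vehicle (adjusted p 0.0107). Scaled to the hur features, all 3 passenger strands were called lower there (-3.25 to -2.05). With metformin in control shRNA cells let-7b* and let-7d* were called higher with array weights (adjusted p 0.00751 and 0.0134), with only the groups compared (0.0187 and 0.0378), without replicate 1 of Dicer shRNA cells with vehicle (0.0057 and 0.0173) and with scaling to the hur features, and let-7b* also after quantile normalization (0.00474). With metformin in Dicer shRNA cells let-7b* was called higher without replicate 1 of the vehicle arrays (0.99, adjusted p 0.0223) and with array weights (adjusted p 0.0428). let-7f-1* was called higher there after quantile normalization (adjusted p 0.000388), with scaling to the hur features (adjusted p 0.00196), with array weights (adjusted p 0.0439) and without replicate 1 of control shRNA cells with vehicle (adjusted p 0.0286). The interaction was called lower for all 3 with scaling to the hur features (-4.02 to -2.57), for let-7d* with array weights (adjusted p 0.0323) and for let-7f-1* after quantile normalization (adjusted p 0.000824).

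The guide-to-passenger ratio of the let-7b hairpin within an array needs no scaling. On the log2 scale it averaged 1.46 ± 0.28 in Dicer shRNA cells with metformin (SD, n = 3), and was -1.85 and -0.56 on the 2 control shRNA arrays with metformin that detected let-7b. It was 1.71, 4.18 and 4.03 in the Dicer line under vehicle and 5.44, 5.19 and 4.89 in the control line under vehicle. Under vehicle the Dicer shRNA arrays all lay below the control shRNA arrays, with a difference of -1.86 (exact permutation p = 0.1, the smallest possible), or -1.07 without replicate 1 of the Dicer shRNA arrays, the lowest. Under metformin they lay above them by 2.67, and in control shRNA cells the metformin arrays lay below the vehicle arrays by -6.38 (exact p = 0.2 each, the smallest that 3 against 2 arrays allows). With either control shRNA metformin array alone these differences were 2.02 or 3.32 and -5.73 or -7.03. The Dicer shRNA groups with metformin and vehicle overlapped (difference -1.84, exact p = 0.2), but not without replicate 1 of the vehicle arrays (difference -2.64) or replicate 2 of the metformin arrays. The adjusted p over the 6 ratio tests was 0.24 for each of these. In control shRNA cells the passenger strand let-7b* was 0.92 higher on the metformin arrays, where the viral probes were higher too (median difference 1.38). The part of such a shift in the ratio was not tested.

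**Figure D4:**
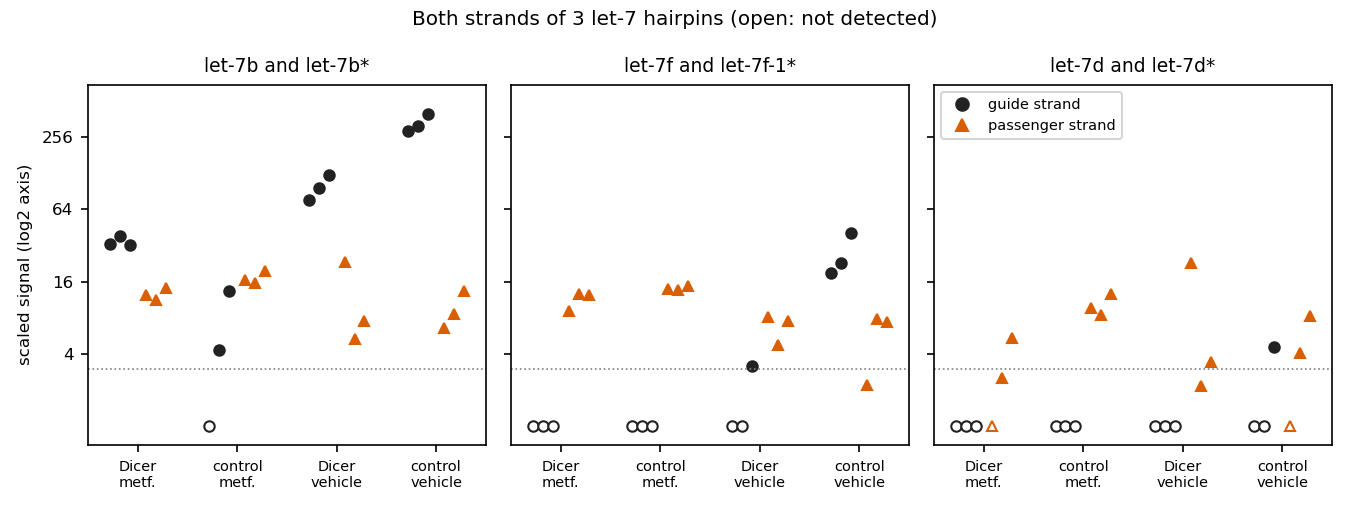
Scaled signal (log2 axis) of guide strands (circles) and passenger strands (triangles) of 3 let-7 hairpins on each array, 3 arrays per group; open symbols are arrays without detection and the dotted line is the floor of 3.01. Guides are highest in control shRNA cells with vehicle, whereas let-7f-1* is highest in control shRNA cells with metformin (13.7 to 14.8); heights of different strands are not comparable.

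Of the let-7 clusters, let-7c shares its transcript with miR-99a and a miR-125b hairpin, a let-7a hairpin with miR-100 and the other miR-125b hairpin, and let-7e with miR-99b and miR-125a. The 5 guide strands of these partners were all detected and tested, and they stood in the same order of groups as let-7b where they could be measured. miR-100 had 65.1, 78.7 and 57.1 in Dicer shRNA cells with metformin, 6.76, 16.2 and 13.3 in control shRNA cells with metformin, 127, 127 and 121 in Dicer shRNA cells with vehicle and 285, 289 and 275 in control shRNA cells with vehicle. miR-125b had 31.2, 45.3 and 17.0 in Dicer shRNA cells with metformin, 5.11 on 1 array of control shRNA cells with metformin, 85.0, 119 and 136 in Dicer shRNA cells with vehicle and 259, 258 and 298 in control shRNA cells with vehicle. Both were detected on far more arrays than let-7a, which shares a transcript with them.

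miR-99a qualified for the tests through control shRNA cells with vehicle alone, where it had 10.9, 13.7 and 13.6, and it is not counted. Under vehicle the other 4 partners fell in Dicer shRNA cells, with differences of -1.45 for miR-125a-5p, -1.29 for miR-125b, -1.18 for miR-100 and -0.39 for miR-99b (limma). Their adjusted p was 5.03e-06 to 0.0221, and 38% of all tested microRNAs were called lower. The call of miR-125b was lost after quantile normalization (adjusted p 0.104), with the series matrix (adjusted p 0.0709) and with scaling to the hur features (adjusted p 0.578), and that of miR-100 with scaling to the hur features (adjusted p 0.0711). The call of miR-99b was lost after quantile normalization (adjusted p 0.432) and without replicate 1 or 2 of control shRNA cells or replicate 3 of Dicer shRNA cells with vehicle (adjusted p 0.0552 to 0.0758). Under metformin miR-125b (3.01), miR-100 (2.55) and miR-99b (0.92) rose in Dicer shRNA cells (adjusted p 3.33e-05 to 0.000203, limma), where 13.9% of all tested microRNAs were called higher. The floor limits the value of miR-125b, which 1 of 3 control shRNA arrays detected there. There miR-99a and miR-125a-5p were detected in neither group.

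With metformin in control shRNA cells miR-125b (-6.24), miR-100 (-4.64) and miR-99b (-1.84) fell. Their adjusted p was 4.08e-08 to 2.54e-07 (limma), and 40.4% of all tested microRNAs were called lower. The floor limits the value of miR-125b, which 1 of 3 metformin arrays detected. With metformin in Dicer shRNA cells miR-125b (-1.95), miR-100 (-0.91) and miR-99b (-0.53) fell. Here the adjusted p was 0.0022 to 0.0326 (limma), and 18.3% of all tested microRNAs were called lower. miR-125a-5p qualified through the vehicle groups alone and was detected on no metformin array, so that it had to be lower. It is given as a description with no test, at least 8.31-fold lower in control and 3.05-fold in Dicer shRNA cells. In the Dicer shRNA cells the calls of miR-125b and miR-99b were lost with only the groups compared (adjusted p 0.058 and 0.103), and those of miR-100 and miR-99b after quantile normalization (adjusted p 0.293 and 0.685). With the series matrix miR-125b (adjusted p 0.143) and miR-100 (adjusted p 0.336) lost theirs, and with scaling to the hur features miR-125b did (adjusted p 0.248). miR-100 was not called with microRNAs detected on at least 1 array (adjusted p 0.0544). It also lost its call without any 1 of 6 arrays, all 3 of Dicer shRNA cells with vehicle, replicates 1 and 3 of Dicer shRNA cells with metformin and replicate 2 of control shRNA cells with vehicle (adjusted p 0.0518 to 0.122), and miR-99b without replicate 2 of Dicer shRNA cells with vehicle (adjusted p 0.0591). The comparisons share arrays with each other. The sign of miR-99b turned in each after scaling to the hur features (0.37, -0.80, 1.56 and 0.39 in the order given), that of miR-100 did so for metformin in Dicer shRNA cells, and with the series matrix miR-99b was 0.06 there.

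Of the 6 opposite strands only miR-125a-3p was tested. It was 0.94 ± 0.19 higher in Dicer shRNA cells under vehicle (adjusted p 0.00146, limma) and 1.85 ± 0.19 higher with metformin in control shRNA cells (adjusted p 5.33e-06), whereas miR-125a-5p fell in the first and was undetected with metformin. With scaling to the viral probes these differences were 0.065 (adjusted p 0.698) and 0.19 (adjusted p 0.164). miR-125a-3p was called lower in Dicer shRNA cells under metformin (-0.58 ± 0.19, adjusted p 0.0346). That call was lost without scaling (adjusted p 0.0554), with scaling to the viral probes (-0.0414), with microRNAs detected on at least 1 array (adjusted p 0.0504), with the series matrix (adjusted p 0.161), and without any 1 of the control shRNA arrays or replicate 1 or 2 of the Dicer shRNA arrays with metformin (adjusted p 0.0586 to 0.102).

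**Figure D5:**
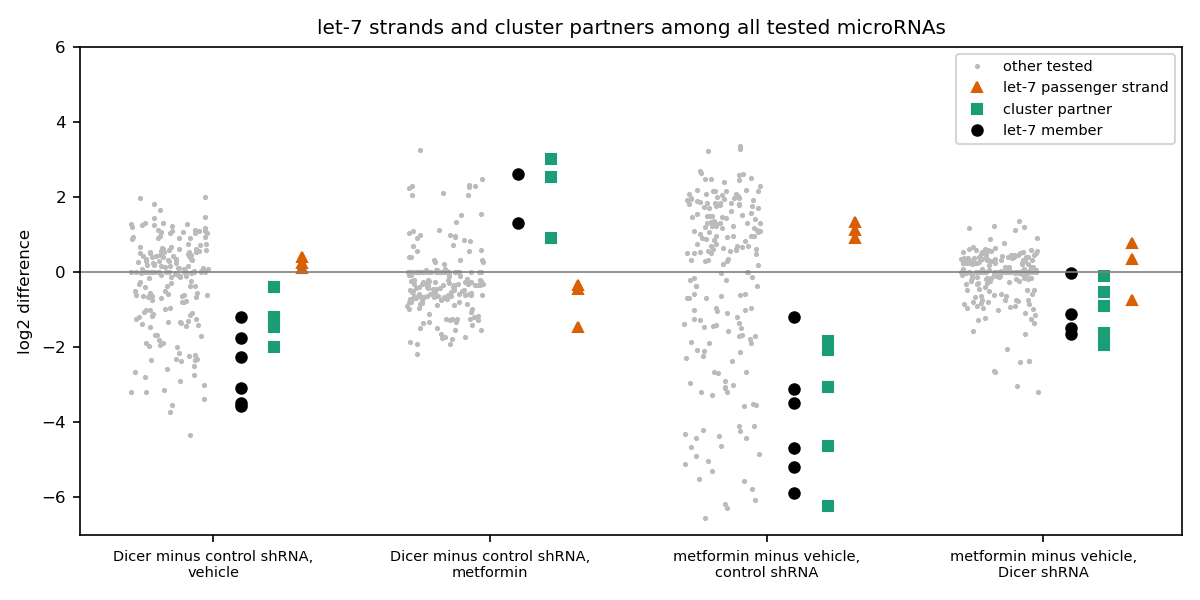
log2 differences in the 4 comparisons for let-7 members (black circles), partners from let-7 clusters (green squares), let-7 passenger strands (orange triangles) and all other tested microRNAs (grey), leaving out listed microRNAs detected in neither group. With metformin in control shRNA cells the 6 members lie from -5.88 to -1.19 and the 3 passenger strands from 0.92 to 1.35.

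The microRNAs whose pattern over the 12 arrays was most like the mean of the 6 tested members, by Pearson correlation of floored log2 signals, were miR-29c (0.972), miR-106b (0.971), miR-146a and miR-425 (0.970 each) and miR-19b (0.966). They share the arrays, the scaling and the floor with the family. miR-29c, miR-106b and miR-425, like let-7a, were detected on 5 arrays, 2 of Dicer shRNA cells and 3 of control shRNA cells, all with vehicle. miR-146a and miR-19b, like let-7c, were detected in Dicer shRNA cells with metformin (2 arrays each) and on no array of control shRNA cells with metformin.

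Base composition differed among the members. let-7b has the highest GC content (45.5%) and was detected on 11 arrays, and let-7f and miR-98 have the lowest (31.8%) and were detected on 4 and 0. let-7c, let-7d, let-7e and let-7i all have 40.9% and were detected on 9, 1, 2 and 3 arrays. let-7a and let-7g have 36.4% each and were detected on 5 and 3 arrays. let-7b* and let-7d* have 50% each and let-7f-1* 40.9%. Over 9 members that differ in abundance and genomic source this is a description only.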

How the data were processed

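Total RNA was labelled with Cy3, per the labels, whose labelling protocol describes an mRNA kit. Per the file headers, each deposited file gives 1 linear intensity per name (the total gene signal), the error of that value and whether it counts as detected. The submitters' processing notes name Agilent Feature Extraction 9.1, and how background was treated is not given. Undetected names hold 0.1. The deposited series matrix holds log2 values, 0 where undetected, whose normalization and centring stay unknown, and it served as an alternative. Groups follow titles and characteristics, with which the source names of metformin samples conflict. Slides were read from the array identifiers.

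Each array was divided by its 75th percentile over the 98 human names detected on all arrays (factors 0.869 to 1.20), floored at 3.01, which is the 5th percentile of each array's detected signals, taken as the median of the 12, and log2 was taken. limma 3.58.1 (R 4.3.3; lmFit, eBayes) fitted 4 group means to 208 names detected on all 3 arrays of a group, with 8 residual and 1.85 prior degrees of freedom. An "at least" fold sets the dim group, on each array, at the floor or at that array's lowest detected signal, whichever was higher. It is a bound only if the undetected signal lay no higher than that value. Python 3.11.15, numpy 2.4.6, pandas 2.3.3, scipy 1.17.1 and matplotlib 3.10.9 were used. The fit was tested on simulated data that held no floor and no undetected arrays, so that test does not cover names at the floor. Replicates are called biological in the labels. The number of arrays limits the precision.

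The members were given by name. The passenger strands, cluster partners, the 5 most similar patterns and the marker lists were chosen with earlier results of these data known. Sequences are from RefSeq, and star names were matched to the -3p arm. The array does not list let-7a-2* or miR-98*, and let-7f-2* was not found in the sequence table. Replicate numbers were not treated as pairs in the main fit. Deviations of same-numbered arrays correlated at -0.18 to 0.32, and for 0 of 6 pairs of groups were all above 0.1. With 3 arrays per group this cannot exclude a pairing.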

Additional observations from a re-analysis of the deposited data

Results flagged for a closer look

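The knockdown difference differed between metformin and vehicle by the interaction term of the fit (limma, Benjamini-Hochberg adjusted p under 0.05) for let-7b and let-7c. Over all tested microRNAs the term was called for 76.4%, and for 37% in this positive direction. The difference under metformin minus that under vehicle was 4.39 for let-7b and 3.55 for let-7c, on the log2 scale. The floor on control shRNA arrays with metformin limits both values. Metformin and slide cannot be told apart here, and the sign for let-7b would turn if the metformin groups were exchanged. Scaled to the hur features that of let-7b was 2.67 (adjusted p 0.053). The term was also past the threshold for let-7a (3.56), let-7i (3.48), let-7f (3.08) and let-7g (1.19). No metformin array detected these 4, which qualified through control shRNA cells with vehicle alone, so the value only restates their vehicle difference and shows no different knockdown effect.

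The same term, called for 76.4% of all tested microRNAs, was called for cluster partners of let-7. It was 4.29 for miR-125b, a value the floor limits, 3.73 for miR-100 and 1.31 for miR-99b, the last of which was -1.16 with scaling to the hur features, and -1.52 for miR-125a-3p, which was -0.11 with scaling to the viral probes (adjusted p 0.595). It was 1.99 for miR-99a and 1.45 for miR-125a-5p, which no metformin array detected, so that it restates their vehicle difference.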

How the results depend on the processing

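The counts of calls below include let-7a, let-7f, let-7g and let-7i, whose differences from groups without detection the filter fixed. With the main settings 38% of all tested microRNAs were called lower for the knockdown under vehicle and 13.9% higher under metformin. For metformin 40.4% were called lower in control and 18.3% in Dicer shRNA cells, and for the interaction 37% were called higher. The number of members called was 6 of 6 with 1 array left out for the knockdown under vehicle, for metformin in control shRNA cells and for the interaction, and 2 for the knockdown under metformin. For metformin in Dicer shRNA cells it was 1 to 3, against 2. There it was also 0 after quantile normalization and 1 with scaling to the hur features, a floor at the lowest detected signal, microRNAs detected on at least 1 array, the series matrix or only the groups compared. For the knockdown under metformin it was 1 with scaling to the viral probes or the hur features. No other alternative run moved a count by over 1.5 times, among them the fit with the replicate block, which gave 6, 2, 6, 2 and 6 calls, the same as without it. Of 36 comparisons of an array with another group, 14 correlated best with the array of their own number.

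Under the alternatives run, signs turned for none of the tested members, but for passenger strands and cluster partners. For let-7b* the knockdown under vehicle was -0.0474 without scaling, -0.31 with median scaling, -0.77 with viral scaling, -0.0870 with the series matrix, -0.28 with array weights and -0.53 to 0.55 without single arrays. For let-7d* it was -0.21 (viral scaling), -0.0325 (array weights) and -0.54 to 0.92 (without single arrays), and for let-7f-1* -0.17 (median scaling), -0.47 (viral scaling) and -0.19 to 0.50 (without single arrays). Under metformin the knockdown was 0.0846 for let-7b* and 0.21 for let-7f-1* with viral scaling. The metformin difference in control shRNA cells was -0.74, -0.32 and -0.15 for let-7b*, let-7d* and let-7f-1* with viral scaling. In Dicer shRNA cells it was -0.0852 to 0.99 for let-7b* and -1.27 to 0.20 for let-7d* without single arrays. The interaction was 0.86 and 0.68 for let-7b* and let-7f-1* with viral scaling, and -1.003 to 0.0736 for let-7b* without single arrays. With scaling to the hur features miR-99b was 0.37, -0.80, 1.56, 0.39 and, for the interaction, -1.16, and miR-100 was 0.00885 for metformin in Dicer shRNA cells, where the series matrix gave 0.0633 for miR-99b. The cause was not tested. For metformin in control shRNA cells, viral scaling moved the median of all tested microRNAs by -1.51 and scaling to the hur features by 2.74.

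Scaling to the hur features was chosen after seeing the data. The 75th percentile over all human names was not run, because it is the value of undetected names on each array, and the filter on detection on all 12 arrays leaves no member to test. After quantile normalization and with scaling to the hur features let-7g was -0.42 and -0.17 in the knockdown under vehicle and in the metformin comparison of control shRNA cells, past no threshold. Signals near the floor limit let-7d, let-7e and let-7g.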
